A study of Danio rerio with 6 samples.

Results

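Silent miRNA loci are the annotated zebrafish miRNA loci at which no read was counted in any library of this small RNA sequencing experiment on the adult telencephalon. The members were chosen by that count alone, so a count of 0 in all 6 libraries describes each of them and is not a finding. They are 212 of the 434 annotated loci (48.8%), and the other 222 loci, called counted loci here, had a read in some library. Libraries came from injured telencephalic hemispheres (3 libraries) and from control hemispheres, labelled healthy and untreated (3 libraries). A hemisphere was lesioned with a syringe needle, per the study's methods, and its RNA was taken 5 days later, while the other hemisphere served as the uninjured control. The labels give the fish no genotype, age or strain, the tissue is a bulk hemisphere with all its cell types, and the methods describe hemispheres handled one by one, with no source tying libraries of the same number to a fish.

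A miRNA gene is transcribed as a hairpin precursor, from which enzymes cut a short mature RNA that guides Argonaute proteins to matching sites in mRNAs and lowers their translation and stability. Many miRNAs are confined to a cell type or a stage, so a single tissue holds reads of only some of the annotated genes. Zebrafish also carry many near-identical miRNA genes, a legacy of genome duplication and of local tandem copying, and names that differ only in a hyphenated final number usually denote genes with the same mature sequence. A short read from such a gene maps equally well to each copy, and the study kept only reads with a mapping quality of 30, a limit that commonly removes reads with several equally good positions before counting. The sources name different mappers, whose quality scores differ, so how such reads were treated, and with it their part in the zeros, was not tested. A silent locus can therefore be a gene without transcripts in this tissue, a gene whose mature RNA cannot be assigned to 1 copy, or a gene below the depth of the libraries, among other readings. The study also kept only inserts of 21, 22 and 23 nucleotides, mapped without soft clipping and with 1 mismatch. The part of these steps in the zeros was not tested either.

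The depth set a low limit. The injured libraries held 14545864, 11529705 and 11473850 reads at miRNA loci, and the control libraries held 2626557, 4008607 and 2475462 reads. With 3 reads taken as what a count of 0 allows, a silent locus lay below 0.206, 0.26 and 0.261 reads per 1000000 (RPM) in the injured libraries and below 1.14, 0.748 and 1.21 RPM in the control libraries. Over the 3 injured libraries together the limit was 0.0799 RPM, over the 3 control libraries 0.329 RPM, and over all 6 libraries 0.0643 RPM. These limits cover counting error only. Counted loci had a median of 108 RPM over the 6 libraries together, far above these limits.

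Few loci lay close to the line between silent and counted. Just inside it all 212 members had 0 reads by the rule, and just outside it 4 loci had 1 read in all, 6 had 2 reads and 1 had 3 reads. The 1-read loci were MIR133A2 and mir499a, from families known from striated muscle, MIR145, known from smooth muscle, and MIR98, a relative of let-7. In contrast, 54 counted loci had at least 10000 but under 100000 reads, and 40 had 100000 or more. The expected effect of removing reads at random was also small. With 0.1 of the reads of every library, 224.7 loci were expected at 0, and with 0.5 of the reads 215.7, against 212 at full depth.

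**Figure D1:**
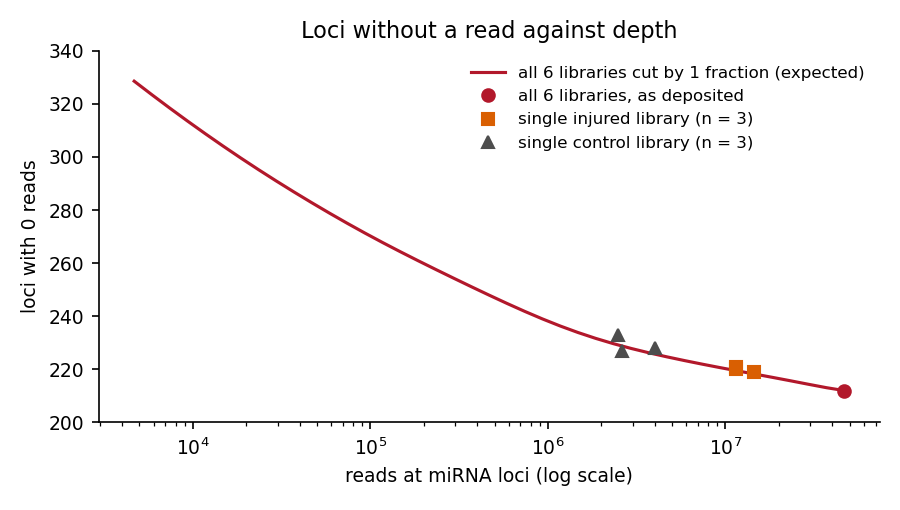
Annotated loci with 0 reads (vertical axis, starting at 200) against reads at miRNA loci (horizontal axis, log scale). The line gives the number expected when all 6 libraries are cut to the same fraction of their reads, the circle all 6 libraries as deposited (212 loci), the squares the 3 single injured libraries (219 to 221 loci) and the triangles the 3 single control libraries (227 to 233 loci). The line falls slowly at its right end.

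Most silent loci either had no symbol or belonged to mir-430. Loci with no symbol in the table of gene names made up 93 of the 212 (43.9%), and the mir-430 family made up another 55 (25.9%). The remaining 64 belonged to named families that are grouped here by the number in the miRNA name. Without mir-430, the silent share was 26 of 74 among families with 1 annotated locus (35.1%), 30 of 102 among loci of families with 2 or 3 loci (29.4%) and 8 of 100 among loci of families with 4 or more (8%). The silent share was thus lowest in the largest named families, mir-430 excepted. These shares describe the annotation and were not tested.

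**Figure D2:**
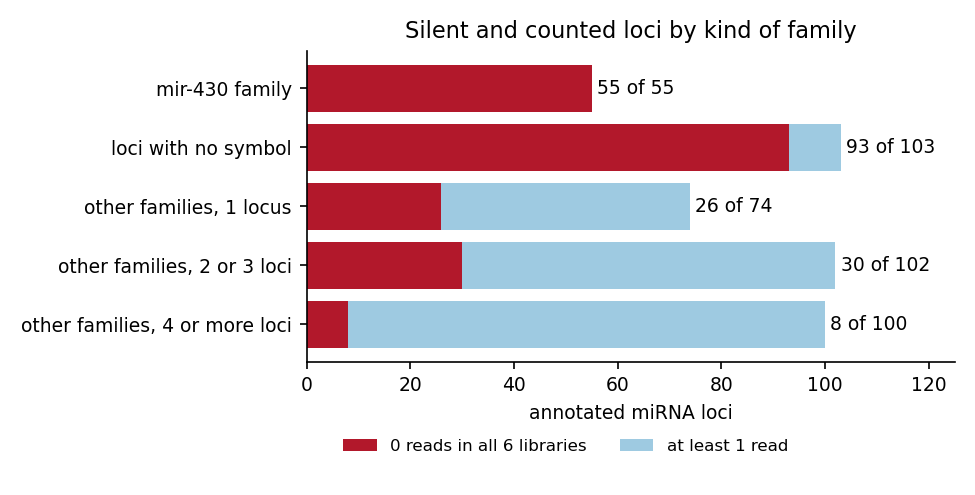
Annotated miRNA loci (horizontal axis) by kind of family, split into loci with 0 reads in all 6 libraries (dark) and loci with at least 1 read (light). The numbers give silent loci of all loci, 55 of 55 for mir-430 and 8 of 100 for other families with 4 or more loci.

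The mir-430 family was the only wholly silent family with more than 3 loci. In zebrafish embryos mir-430 is made in great amounts when the embryo's own genome switches on, and it clears the mRNAs that the mother had placed in the egg. The annotation held 17 loci of mir-430a, 20 of mir-430b and 18 of mir-430c, and each of these 55 loci had 0 reads in injured 1, 2 and 3 and in control 1, 2 and 3. The loci carried 51 different symbols. In the RefSeq gene table of the assembly GRCz12tu, 58 of the 352 miRNA genes belonged to mir-430, and 56 of those had another mir-430 gene next in order, in runs of 46 and 10 genes. All loci found by name in these runs were silent, 46 loci in the longer run and 8 in the shorter. These are loci and not genes, since some genes of each run matched no locus and some matched more than 1. The names imply that copies of a letter group share a mature sequence, which was not checked here. If they do, a read of mir-430 would have as many possible positions as its letter group has copies. The absence of transcripts in the adult telencephalon and the removal of reads with several positions therefore cannot be told apart for this family.

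Of the 136 named families, 29 were wholly silent with 87 loci, 28 were partly silent with 32 silent loci among 100, and 79 had reads at every locus. Families are numbers in names here, so a wholly silent number can have a counted relative under another number. Beside mir-430, the wholly silent families with several loci were mir-34 and mir-2185, with 3 loci each. MIR34A, mir34b and MIR34C form a family that the tumour suppressor p53 switches on in mammals, and whose b and c members are known from cells with motile cilia. The other 26 wholly silent families had 1 annotated locus each. They included MIR223 of neutrophils and other myeloid cells, mir150 of mature lymphocytes, MIR143 of smooth muscle, mir192 of gut, liver and kidney, MIR217, known from the pancreas of mammals, and MIR211, which lies within a pigment cell gene in mammals. MIR489, known from resting muscle stem cells of mice, MIR152, MIR363 and mir456 were also silent. The remaining families of this kind were mir725, mir726, mir730, mir734, mir738, mir740, mir1388, mir2192, mir2195, mir2196, mir2197, mir2198, mir7149, MIR1306, dre-mir-2187 and dre-mir-2193. All of them lay below 0.0799 RPM over the injured libraries and 0.329 RPM over the control libraries.

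Most of these 26 loci had no listed copy. The RefSeq table held only 1 gene of the number for 24 of the 26 families. For mir-143 and mir-211, both named here in human style, it held no gene under that number, so their copies could not be counted this way. Among the 48 counted families with 1 annotated locus, 39 had 1 gene of the number, 4 had at least 2 and 5 had none. Copies that the gene table does not list were not looked for.

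Lists of miRNAs known from particular tissues were set beside the silent share of all named loci without mir-430, 64 of 276 (23.2%). Most lists hold few loci, and their shares were not tested against it. In the blood list 2 of 6 loci were silent, MIR223 and mir150. The 2 loci named MIR142, a miRNA of blood cells in general, were well above the limit in the same libraries. MIR142 (ENSDARG00000082167) had 2037, 3326 and 3028 RPM in the injured libraries, against 1007, 1710 and 1428 RPM in the control libraries. MIR451A, a miRNA of red blood cells, averaged 2115 ± 135 RPM in injured and 1840 ± 211 RPM in control libraries (SD, n = 3 each). Other miRNAs of blood cells were thus counted in every library in which MIR223 and mir150 had no read. In bulk tissue, fewer cells of a type and less RNA per cell cannot be told apart. Reads of MIR223 and mir150 lost before counting would not show here, and why these loci had no read was not tested.

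In the gut and kidney list mir192 and mir194a were silent, 2 of 3 loci, and mir194b had 62.7 ± 18.2 RPM in injured and 48.6 ± 15 RPM in control libraries. In the list of mesenchyme, cartilage and smooth muscle, MIR143 and mir199-1a were silent, 2 of 5 loci. The other locus of the mir-199 family, mir199-2a, averaged 431 RPM in injured and 447 RPM in control libraries. MIR145, which neighbours MIR143 in vertebrate genomes, had 0, 0 and 1 reads in the injured libraries and 0 in each control library. MIR140, known from cartilage, averaged 1843 ± 187 RPM in injured and 1468 ± 9.09 RPM in control libraries. Of the muscle list 1 of 9 loci was silent, a locus named MIR206 (ENSDARG00000081661). The 9 loci summed to 4.12 to 6.28 RPM in injured and 3.05 to 5.25 RPM in control libraries, so the muscle families were mostly counted but at very low levels. The Hox list covers mir-10 and mir-196, which lie inside the Hox gene clusters that pattern the trunk and hindbrain. MIR10A and a locus named MIR196A2 (ENSDARG00000083309) were its silent loci, 2 of 10, whereas mir10c had 268 ± 71.8 RPM in injured and 271 ± 85.4 RPM in control libraries.

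No locus was silent in the lists for epithelium and skin (0 of 9), endothelium (0 of 2), sensory epithelia (0 of 3), endocrine cells (0 of 2) and gonad (0 of 1). Their levels differed widely. The endocrine list summed to only 2.37 ± 0.357 RPM in injured and 1.56 ± 1.03 RPM in control libraries. The gonad list had 10 ± 1.5 and 9.99 ± 1.8 RPM, and the endothelium list 7765 ± 46.3 and 7956 ± 155 RPM. The sensory epithelia list ranged over 1406 to 31827 RPM in the injured libraries and 1119 to 1894 RPM in the control libraries. The liver list and the names mir-215 and mir-214 had no named locus. Neuronal and glial miRNAs made up 279925 ± 24139 RPM in injured and 288856 ± 4725 RPM in control libraries. Of their 38 loci 6 were silent (15.8%), a share below the 23.2% of all named loci without mir-430.

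**Figure D3:**
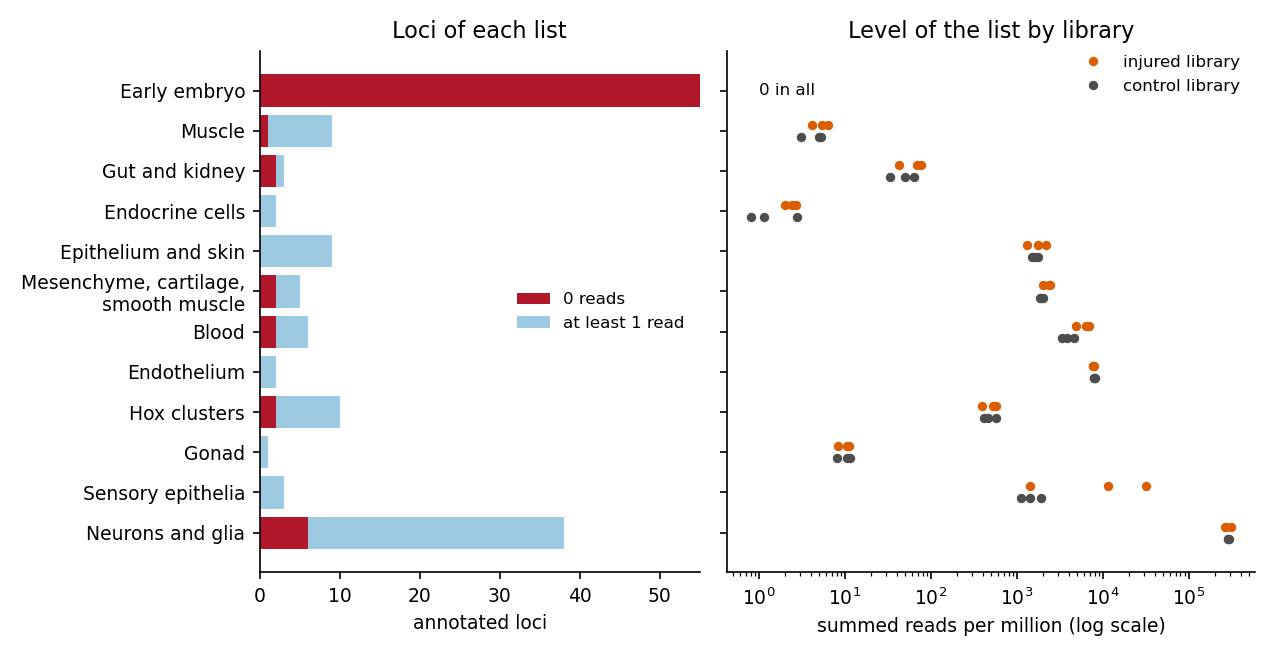
Left, annotated loci (horizontal axis) of each tissue list, split into loci with 0 reads (dark) and loci with at least 1 read (light). Right, summed RPM of the list (log scale) in each of the 3 injured libraries (upper points) and the 3 control libraries (lower points). The early embryo list is at 0 in all 6 libraries, and the neuron and glia list is highest, with 6 of its 38 loci silent.

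The silent loci of neuronal and glial families stood beside counted relatives at very different levels. MIR153-2 and mir153b had no read, while mir153c, of the same neuron-enriched family, had 38143, 58522 and 44595 RPM in injured 1 to 3 and 42963, 49790 and 48648 RPM in control 1 to 3. The values of the groups overlapped. MIR219A2 and mir219-2 had no read, and mir219-3, whose family drives the maturation of oligodendrocytes in mammals and zebrafish, had 3.94 ± 0.469 RPM in injured and 3.45 ± 0.904 RPM in control libraries. The silent dre-mir-338-1 belongs to another family of oligodendrocytes, in which dre-mir-338-2 had 292 reads and dre-mir-338-3 had 2490 reads over the 6 libraries. The silent mir218a-1 belongs to a family known from motor neurons, in which MIR218-1 had 5713 reads and mir218b had 1187 reads.

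Partly silent families held 14.5% of all reads at miRNA loci, and their family sums ranged from 0.0429 to 54647 RPM with a median of 360 RPM. In 9 of them the sum was above 1000 RPM. The largest was let-7, with 1 silent locus of 18, a locus named MIRLET7F2 (ENSDARG00000083425), beside 1059749 reads at MIRLET7I. In the mir-107 family mir107b had no read and dre-mir-107 had 498775 reads. In the mir-16 family, known to restrain the cell cycle in mammals, mir16c had no read and mir16b had 361339 reads. A silent MIR181B1 (ENSDARG00000081145) stood beside mir181c with 262128 reads, and a silent MIR27B (ENSDARG00000080833) beside mir27c with 140378 reads and another MIR27B with 24342 reads. A silent MIR15A (ENSDARG00000081837) stood beside dre-mir-15b with 193233 reads. In the mir-135 family mir135c-1 was silent beside mir135c-2 with 1579 reads and mir135b with 192415 reads. The most abundant locus held 99.1% of the reads of mir-16, 85.4% of those of mir-15, 82.9% of those of mir-181, 73.5% of those of mir-27 and 41.6% of those of let-7.

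At the lower end, 7 partly silent families summed to less than 10 RPM, among them mir-216, known from the pancreas of mammals, with 2 reads at dre-mir-216b and none at MIR216A. The mir-365 family had 18 reads at mir365-1 and none at dre-mir-365-2 and dre-mir-365-3. The mir-184 family, known from lens and cornea, had 18 reads at dre-mir-184-1 and none at MIR184. The counted copies of mir-365 and mir-184 stood at 0.386 RPM each over the 6 libraries together, not far above the limit of 0.0643 RPM.

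In the middle, mir22b and MIR22 were silent beside mir22a-2 with 13350 reads, mir457b beside mir457a with 26071 reads, and MIR193A beside mir193b with 25284 reads. A locus named MIR21 (ENSDARG00000082187) was silent beside another MIR21 with 10866 reads, and a locus named MIR455 (ENSDARG00000099451) beside another MIR455 with 1737 reads. MIR24-1 was silent beside mir24-1 with 380 reads. Symbols in capitals are human names given to zebrafish loci, and 9 symbols were shared, letter case aside, by a silent and a counted locus, so for these only the gene identifier tells the copies apart.

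**Figure D4:**
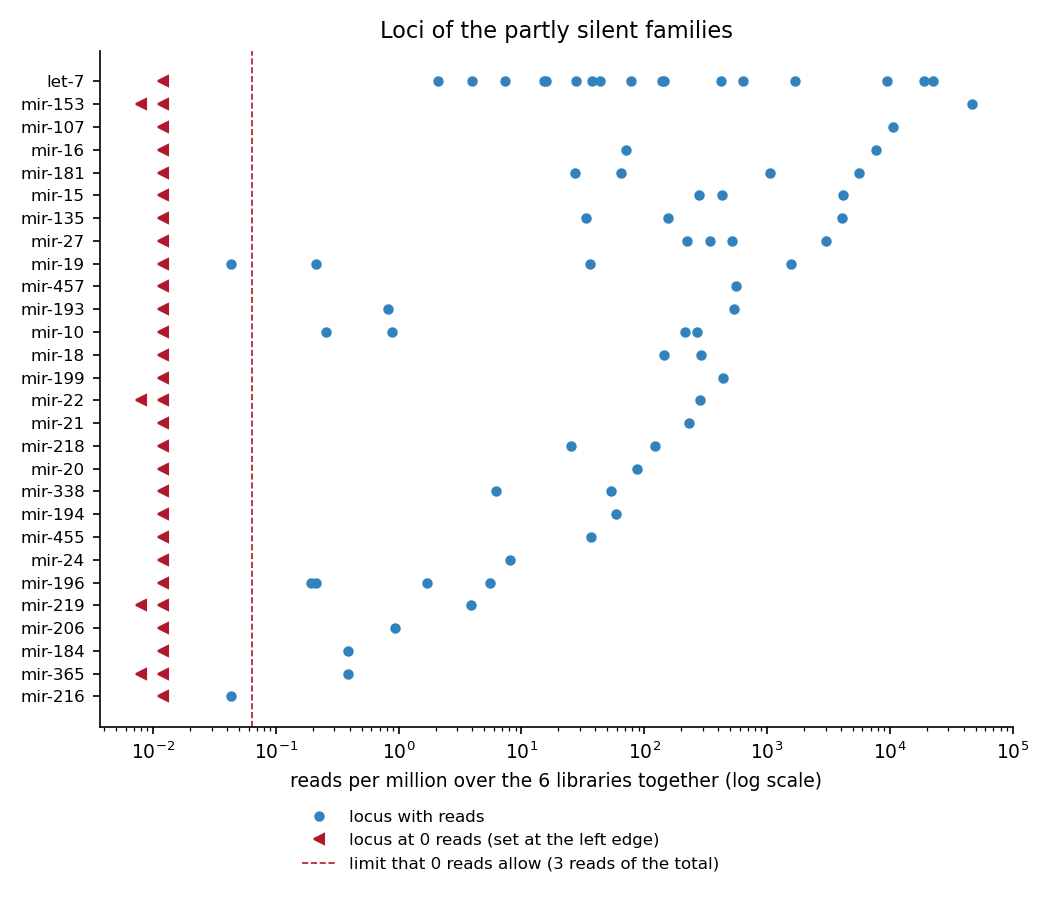
Each row is 1 of the 28 partly silent families, ordered by its summed level. Circles show counted loci by their RPM over the 6 libraries together (log scale), triangles at the left edge show silent loci, and the dashed line marks 0.0643 RPM, the limit that a count of 0 allows. In the upper rows counted loci lie far to the right of the line while a copy of the same family has no read.

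How many zeros came with multi-copy genes was examined with copy numbers from the RefSeq table. That table is of the assembly GRCz12tu, while the reads were mapped to GRCz11, so copy numbers can differ. For mir-22, for example, it held 2 genes against 3 annotated loci. Names in zebrafish style were found there for 219 loci, 92 of them silent. Most of these 92 were the 55 mir-430 loci, whose names have several genes each. With mir-430 left out, 27 of 102 loci whose name had 1 gene were silent (26.5%), against 10 of 62 loci whose name had at least 2 genes (16.1%). Outside mir-430, the silent share was therefore lower among multi-copy than among single-copy names, a description that was not tested. With mir-430 put in the order turns round, since all 55 of its loci were silent. The names with the most copies, mir9 with 7 genes, mirlet7a with 6, mir124 with 6, mir181a with 5, and mir129 and mir24 with 4 each, had no silent locus among the 18 found under a zebrafish-style name. The 106 loci with human-style symbols, 27 of them silent, could not be counted this way, and they include the silent MIR24-1 and MIR181B1. Multi-copy names did have fewer reads where they had any. Their counted loci had a median of 14.9 RPM over the 6 libraries together, against 470 RPM for counted loci of single-copy names.

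Reads were very unequal among copies of 1 name. The 5 mir9 loci found by name, of a family that sets the timing of neurogenesis, spread over 28 to 3818931 reads. Of these, mir9-4 had 82402 ± 6312 RPM in injured and 80475 ± 3167 RPM in control libraries, and mir9-3 had 0.646 ± 0.277 RPM in injured and 0.352 ± 0.414 RPM in control libraries. The 5 mir124 loci found by name, whose mature RNA is among the most abundant in vertebrate neurons, had only 229 to 890 reads each. The mirlet7a loci had 1746 to 29603 reads. The 10 silent loci with multi-copy names were 3 of mir2185, 2 of mir365 and 1 each of mir135c, mir199a, mir218a, mir219 and mir338. Mature sequences were not used here, and how far the limit on mapping quality lowered the counts of these copies was not tested.

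**Figure D5:**
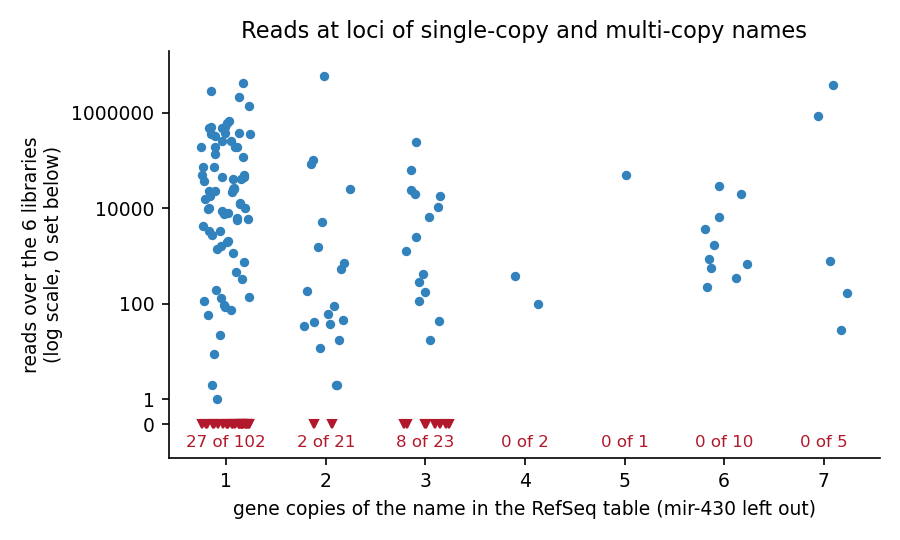
Reads over the 6 libraries (vertical axis, log scale, with 0 set below 1) at loci with zebrafish-style names, by the number of genes of that name in the RefSeq table (horizontal axis), mir-430 left out. Circles are counted loci and triangles silent loci, and the figures under each column give silent loci of all loci. Silent loci appear at 1, 2 and 3 copies and at no higher number.

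The counting step set few reads aside as ambiguous. Reads overlapping more than 1 annotated feature came to 6103 over the 6 libraries, 0.0115% of all reads. Which loci they overlapped is not given, and this line does not count reads with several genome positions. Reads outside all annotated loci were 11.7% ± 0.54 of reads in injured and 11.7% ± 0.0981 in control libraries (SD, n = 3 each). The lines for reads without a unique alignment, with low quality or without an alignment were at 0 in every library, so reads removed before counting left no trace in these tables.

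Some silent loci lay next to each other. In the RefSeq gene order mir363, mir19c, mir20b and mir18c followed each other and all 4 were silent. They resemble the mir-17 to mir-92 cluster, which promotes cell growth in mammals, and relatives elsewhere were counted, such as mir19d with 73938 reads, MIR20A with 4108 reads and a MIR18A with 13653 reads. Both mir194a and mir192, and both mir34b and mir34c, were neighbours and silent. Other silent loci had a counted neighbour. The silent mir7149 lay beside dre-mir-429 of the epithelial mir-200 group, which had 8146 reads, dre-mir-365-2 beside mir193a-1 with 38 reads, and MIR216A beside dre-mir-216b with 2 reads. Of the 47 silent loci outside mir-430 found in RefSeq by name, 13 had a miRNA gene next in order, and for 8 of them a next gene was matched to a silent locus. These 8 are the loci of the silent runs named above, and the same share was not computed for counted loci. Next genes whose names matched no locus were left out of this count. Among them was mir217-1 beside MIR216A, although a locus named MIR217 was silent.

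Loci without a symbol were silent in 93 of 103 cases (90.3%), a larger share than in named loci (119 of 331, 36%). The 10 counted loci of this kind ranged from 0.0429 to 515 RPM over the 6 libraries together, with a median of 0.568 RPM, and the most abundant was ENSDARG00000105103 with 24051 reads. What kind of hairpin the silent ones encode was not examined.

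Few loci were silent in 1 group and counted in the other. The injured libraries had 219, 220 and 221 loci at 0, and the control libraries had 227, 228 and 233. The groups did not overlap, but the injured libraries were also deeper. With every library cut to 2475462 reads, the number of loci expected at 0 over the 3 libraries of a group was 221.9 for injured and 221.4 for control, and single libraries ranged over 228.8 to 230.6 for injured and 227.9 to 233.0 for control. In all, 8 loci had reads in injured libraries only, with at most 3 reads each, and 2 loci had reads in control libraries only, with 2 reads each. No locus was thus silent in 1 group and counted above 3 reads in the other.

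Silent loci have no value to test between groups. Their counted relatives were compared instead, which are other loci and do not show whether the silent loci respond to injury. Of the 68 counted loci in partly silent families, 57 had a mean normalised count above 10 and were tested with edgeR's quasi-likelihood test, adjusted by the Benjamini-Hochberg method over all 188 tested loci. Among the 57 relatives 7 were called changed at an adjusted p below 0.05 (12.3%), beside 24 of 188 over all tested loci (12.8%). In this fit the share among relatives was near the background. All 7 were higher in injured hemispheres, but so were 20 of the 24 calls over all tested loci, with 4 lower. Among relatives the direction was not general to all settings. With DESeq2 size factors 1 of 6 calls was lower, and with the DESeq2 test 2 of 9 calls were lower. The median log2 fold change, injured over control, was 0.08 among the relatives and 0.03 over all tested loci. Levels of the tested loci are given below as CPM, counts per 1000000 after scaling by the trimmed mean of M values.

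The largest of the 7 changes was at the counted MIR21, a miRNA that is often raised in injured mammalian tissue. It had 243, 305 and 220 CPM in the injured libraries, against 130, 138 and 99.4 CPM in the control libraries. Every injured library was above every control library, and the log2 fold change was 1.06 ± 0.17 (SE, n = 3 each, edgeR adjusted p = 0.00881). The other locus named MIR21 had 0 reads in all of them. In the mir-15 family MIR15B rose by 0.61 ± 0.11 and dre-mir-15b by 0.43 ± 0.08 on the log2 scale. The counted MIR15A of that family went the other way, by -0.22 ± 0.07, and was not called (edgeR adjusted p = 0.116). At MIR15A every injured library lay below every control library. In the mir-27 family mir27a, MIR27B and dre-mir-27e rose by 0.54, 0.48 and 0.47, and in the mir-457 family mir457a rose by 0.46. The mir-27 locus with the most reads, mir27c, was not called (0.33 ± 0.13, edgeR adjusted p = 0.196), and its groups overlapped. None of the 7, MIR21 included, was called with a Bonferroni adjustment, and mir27a and MIR27B were not called with the replicate number as a block. Without control 1, 1 of 58 tested relatives was called, beside 10 of 191 over all tested loci. Without control 3 it was 1 of 57 beside 10 of 189, and without control 2 it was 4 of 57 beside 14 of 188. Without injured 3, 2 of 57 relatives were called, beside 10 of 186 over all tested loci. Calls over all tested loci were thus also fewer in these settings.

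The relatives with the most reads did not pass the test. The counted mir153c averaged 46513 ± 10408 CPM in injured and 47735 ± 3414 CPM in control libraries, with a log2 fold change of -0.04 ± 0.15 (SE, n = 3 each, edgeR adjusted p = 0.936). The let-7 loci with the most reads were MIRLET7I, MIRLET7F1 and MIRLET7G. Their log2 fold changes were -0.12 ± 0.07, -0.20 ± 0.06 and -0.17 ± 0.07 (edgeR adjusted p = 0.354, 0.0756 and 0.235). At MIRLET7F1 and MIRLET7G every injured library lay below every control library, though neither was called. The log2 fold change was -0.00 ± 0.07 at dre-mir-107 (edgeR adjusted p = 0.975) and 0.06 ± 0.07 at the counted mir16b (edgeR adjusted p = 0.746). The labels name no fish for a library, so these p-values measure the spread between these libraries, and how much of it is between fish is not given.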

How the data were processed

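Small RNA libraries were made from injured and control telencephalic hemispheres. Per the study's methods, the authors trimmed reads with Cutadapt, kept inserts of 21, 22 and 23 nucleotides, mapped them to GRCz11 without soft clipping and with 1 mismatch, kept a mapping quality of 30, and deposited raw read counts per annotated miRNA locus made with HTSeq, 1 table per library. The methods name STAR as the mapper and the submitters' processing notes name BWA. The sources used here give no version of any of these tools. HTSeq's 5 summary lines were left out of library totals. The members and the gene lists were chosen with earlier results of these data known. RPM is the count per 1000000 reads at miRNA loci. Symbols came from a table of identifiers that named 331 of 434 loci. Families are the numbers in the symbols. Gene order and copies came from RefSeq (GRCz12tu), matched by name. Expected zeros at lower depth were computed exactly from the counts, and the code was checked against random draws. Named loci were silent loci of families with 4 or more silent loci, of the tissue lists and of partly silent families, loci with 1 to 3 reads, and gene neighbours. The 7 called relatives were named too. Loci with a mean normalised count above 10 over the 6 libraries were tested with edgeR 4.0.16 in R 4.3.3 (TMM scaling, group as the only term, two-sided), and DESeq2 1.42.0 was an alternative. The fit was tested on simulated data.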

Additional observations from a re-analysis of the deposited data

How the results depend on the processing

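The number of silent loci, of wholly silent and of partly silent families stayed within 1.5 times the values given under every alternative run. Without 1 library at a time the counts were 212 to 214 silent loci, 29 to 31 wholly silent and 28 to 29 partly silent families. The seed is the part of a mature RNA that pairs with mRNA sites. With families of different numbers joined where they are known to share a seed, 26 families were wholly silent and 30 partly silent. The silent share of families with 1 locus was 39.2% with control libraries only, 39.2% when loci with up to 3 reads counted as silent, and 35.1% to 37.8% without 1 library. That of families with several loci was 21.8% when up to 3 reads counted as silent and 36.2% with mir-430 put in. Called relatives numbered 0 of 57 with the Bonferroni adjustment (12 at an unadjusted p below 0.05), beside 6 of 188 over all tested loci. With DESeq2 they numbered 9 of 57 (7 higher and 2 lower), beside 31 of 188. With DESeq2 size factors they numbered 6 of 57 (5 higher and 1 lower), beside 21 of 188. Without 1 library, 1 to 7 relatives were called, beside 10 to 24 over all tested loci. None of the 7 relatives called in the report changed direction under any of the 12 alternatives. With the replicate number as a replicate block, 6 of 57 relatives were called, 5 higher and 1 lower, beside 22 of 188 over all tested loci. Neither mir27a nor MIR27B was among these 6. Same-numbered libraries correlated at 0.32, 0.12 and 0.08 in their deviations from the group means. Every library correlated best with its own number, but control 3 stood at 0.08 with injured 3 and at 0.06 with injured 2. This is a weak hint of pairing. The other hemisphere served as control, but no source ties libraries of the same number to a fish, and the main fit had no pairing. Grouping by mature sequence and genome placements were not run.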
